A study of Mus musculus with 23 samples.

Results

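The proteasome is the protease that degrades ubiquitin-tagged proteins, and this report is about the mouse genes for its constitutive subunits in cultured CD4+ T cells. The members were the protein-coding genes whose symbol is Psma, Psmb, Psmc, Psmd or Psme followed by a number, without the inducible catalytic genes Psmb8, Psmb9 and Psmb10 and without pseudogenes. They numbered 40 of the 53379 gene IDs in the deposited table of counts. The 20S core accounted for 16 of them, the 19S cap for 20 and the activators for 4. No measured value was used to choose them. Low counts removed 2 of the 40 from the tests: Psma8, a testis form of a core subunit, had 15 counts in 4 libraries, and Psmb11, the thymus-specific catalytic subunit, had 9 counts in 2 libraries. The other 38 were tested.

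The 20S core is a barrel of stacked rings. Its outer rings of Psma proteins gate the entrance, and its inner rings of Psmb proteins hold the protein-cutting sites of Psmb5, Psmb6 and Psmb7. The 19S cap sits on the end of the barrel, where a ring of Psmc ATPases unfolds substrates and Psmd proteins of the base and lid bind ubiquitin and remove it. Activators encoded by Psme genes can take the place of the cap. In lymphocytes, and after interferon in many cells, Psmb9, Psmb10 and Psmb8 replace Psmb6, Psmb7 and Psmb5 to form the immunoproteasome, which makes peptides for antigen presentation. The transcription factor NRF1, encoded by Nfe2l1, is known to raise many proteasome genes together through antioxidant response elements in their promoters.

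The cells were splenic CD4+ T cells from C57BL/6 mice, sorted as CD45+CD3+CD4+CD8- and cultured for 72 h with IL-2 at 30 IU/ml in every group. They had IL-2 alone (unstimulated) or also antibodies against CD3 and CD28 (stimulated), without niacin or with 5 mM niacin, and were labelled wild type or Gpr109a-/-. Gpr109a is the older symbol of Hcar2, which encodes a niacin receptor, and the labels name no conditional allele. These 8 groups held 3 libraries each, except that unstimulated knockout-labelled cells with niacin had 2 (numbered 2 and 3). Whether replicates are separate mice, and how many mice were pooled, is not stated in the labels. The p-values therefore measure only how these 23 libraries vary, which may be technical.

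Total counts ran from 13205565 to 30090018, with a median of 24007159. Under the label that names it as knocked out, Hcar2 had 169 counts in 10 of the 11 libraries. It had 1 count in the 12 wild-type-labelled ones. These counts were few, with at most 32 in a library. What they mean for the labels was not tested, so genotype is given below only as a label. The defining CD4 T cell markers (Cd3d, Cd3e, Cd3g, Cd4, Trac and Ptprc) summed to between 2699 and 5014 CPM (counts scaled by library size and TMM factor) in each library. Libraries that stood apart were library 3 of the unstimulated knockout-labelled group, with the lowest total and 4.57% of its counts on ribosomal-RNA-like genes against at most 2.63% elsewhere, and libraries 1 and 2 of the niacin-treated stimulated wild-type-labelled group, whose mitochondrial share was 0.187% and 0.216% where library 3 beside them had 0.605%. The column name of the former also lacks a tag that every other column carries, and whether it was prepared or counted in another way was not stated in the labels. Values without these libraries are given for some of the results where leaving them out changed a call or moved a named value by over 1.5 times. A value given only with them may depend on them too.

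RefSeq promoters (GRCm38.p6, 250 bases before to 50 after the gene start) were matched for 33 of the 40 members. The letters TGANNNNGC of the antioxidant response element, on either strand, occurred in 75% of the 12 core promoters, 41.18% of the 17 cap promoters and 50% of the 4 activator promoters, against 41.4% of all 27025 promoters. The letters CCAAT occurred in 58.33% of core and 29.41% of cap promoters, against 37.92% of all. A match is a description of the letters and not of a factor bound there. Shown next, 5′ to 3′ on the gene's strand, are 210 bases upstream of the catalytic core genes Psmb5 and Psmb6 and of the ATPase gene Psmc6 and the lid gene Psmd8, the genes of those 2 cap classes with the largest stimulation difference in wild-type-labelled cells. Each window ends before both the deposited and the RefSeq gene start and holds no exon in the deposited table, and capitals mark the antioxidant response element letters.
Psmb5, chr14:54618023-54618232 (- strand): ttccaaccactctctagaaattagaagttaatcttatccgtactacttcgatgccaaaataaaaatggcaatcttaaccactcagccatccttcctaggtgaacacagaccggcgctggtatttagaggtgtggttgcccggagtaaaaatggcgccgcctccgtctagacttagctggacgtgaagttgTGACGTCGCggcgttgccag
Psmb6, chr11:70525147-70525356 (+ strand): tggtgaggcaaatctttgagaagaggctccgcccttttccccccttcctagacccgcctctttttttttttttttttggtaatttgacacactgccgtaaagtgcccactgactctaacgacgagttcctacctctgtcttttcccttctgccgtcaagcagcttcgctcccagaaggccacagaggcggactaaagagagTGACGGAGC
Psmc6, chr14:45329578-45329787 (+ strand): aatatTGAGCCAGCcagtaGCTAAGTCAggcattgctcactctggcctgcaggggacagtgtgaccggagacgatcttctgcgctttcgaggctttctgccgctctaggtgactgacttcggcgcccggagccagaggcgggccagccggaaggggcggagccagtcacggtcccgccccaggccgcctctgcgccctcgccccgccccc
Psmd8, chr7:29180702-29180911 (- strand): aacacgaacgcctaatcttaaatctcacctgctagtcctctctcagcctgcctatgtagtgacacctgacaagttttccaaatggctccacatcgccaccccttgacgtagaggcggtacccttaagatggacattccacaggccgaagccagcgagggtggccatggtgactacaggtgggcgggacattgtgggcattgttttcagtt
The first 2 windows hold 1 match each, beginning 47 bases before the RefSeq start of Psmb5 and 9 bases before that of Psmb6. The Psmc6 window holds 2, beginning 241 and 227 bases before the start and lying on opposite strands. The Psmd8 window holds none, and the 1 match in its longer RefSeq promoter lies outside the window.

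The members lie on 16 chromosomes, with 8 on chromosome 11 and 6 on chromosome 14. Psme1 and Psme2, on opposite strands of chromosome 14, are 5912 bases apart, and Psmb5 and Psmb11 on the same chromosome are 3411 bases apart. In the deposited GRCm38 positions Psmb5 spans 54614119 to 54618022 on chromosome 14, Psmb6 70525367 to 70527858 on chromosome 11 and Psmb7 38588036 to 38644087 on chromosome 2. Psmc6 spans 45329788 to 45349705 on chromosome 14 and Psmd8 29174188 to 29180701 on chromosome 7. CPM per kilobase divides CPM by the deposited exon length, which is 899 bases for Psmb5, 3421 for Psmb7 and 7248 for Psmd9. It covers all exons listed for a gene, so the order of genes given here also depends on the annotation. On this scale Psmb1 was the highest core member in every group and stood at 210.2 ± 16.3 (SD, n = 3) in unstimulated wild-type-labelled cells. Psmb7 was the lowest there at 18.4 ± 1.80, and in every other group but the stimulated wild-type-labelled niacin group, where Psma3 was lowest. Among cap members Psmd9, a chaperone for assembly of the cap's base, was lowest in every group, at 4.93 ± 0.893 in those cells. Psme2 was the highest activator there at 282 ± 10.1, and Psme4 the lowest at 4.97 ± 1.19.

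Stimulation of wild-type-labelled cells came with higher proteasome gene levels, above all in the core. Of the 38 tested, 19 rose and none fell (edgeR quasi-likelihood test, Benjamini-Hochberg adjusted p under 0.05 over all 16882 genes tested), against 23.4% of all genes called higher. Groups did not overlap for 21 of 38 members, against 60.9% of all genes. Of the calls, the core gave 12 of 14, the cap 7 of 20 and the activators 0 of 4. The median log2 fold change was 0.90 over core members, 0.38 over cap members and -0.13 over activators, against -0.07 over all genes. The cap count depended on the fit: it was 4 with scaling by library totals, 11 with the compared groups alone and 15 with limma's voom, against 19.1%, 30.4% and 29% of all genes called higher.

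In the outer ring 6 of 7 Psma members rose. Psma4 measured 118, 122 and 126 CPM in the 3 unstimulated wild-type-labelled libraries and 221, 246 and 299 CPM in the 3 stimulated ones. Every stimulated library was above every unstimulated one, and the log2 fold change was 1.07 ± 0.22 (SE, adjusted p = 0.00045). The member of this ring that was not called was Psma3, at 0.28 ± 0.21 on the log2 scale (adjusted p = 0.276).

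In the inner ring 3 of the 4 subunits without a cutting site rose. Psmb2 went from 212, 184 and 167 CPM to 349.7, 361 and 471 CPM, with no overlap and a log2 fold change of 1.07 ± 0.20 (SE, adjusted p = 0.000188). Psmb3, the core member with the smallest difference, measured 164, 138 and 121 CPM unstimulated and 150.0, 159 and 188 CPM stimulated. These ranges overlapped, and the difference of 0.23 ± 0.14 (SE, adjusted p = 0.177) was not called.

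All 3 standard catalytic genes rose, and in each the stimulated libraries lay above the unstimulated ones. Psmb5, the subunit with chymotrypsin-like activity, measured 90.4, 69.5 and 64.9 CPM unstimulated and 109, 105 and 128 CPM stimulated, a log2 fold change of 0.60 ± 0.17 (SE, adjusted p = 0.00601). Psmb6, with caspase-like activity, measured 214, 181 and 159 CPM and then 291, 276 and 322 CPM, a log2 fold change of 0.68 ± 0.14 (SE, adjusted p = 0.000478). Psmb7, with trypsin-like activity, measured 70.1, 59.0 and 59.9 CPM and then 117, 122 and 135 CPM, a log2 fold change of 0.98 ± 0.23 (SE, adjusted p = 0.00152).

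The inducible catalytic genes did not move as a block. Psmb8, the counterpart of Psmb5, rose from 961, 864 and 769.6 CPM to 1333, 1275 and 1416 CPM, by 0.63 ± 0.15 (SE, adjusted p = 0.00174) on the log2 scale. Psmb9 measured 563, 471 and 524 CPM and then 655, 618 and 663 CPM, and its difference of 0.31 ± 0.14 (SE, adjusted p = 0.0692) was not called although the ranges did not overlap. Psmb10 was lower in all stimulated libraries, at 407, 361 and 346 CPM and then 249.8, 237 and 311 CPM, with a log2 fold change of -0.48 ± 0.19 (SE, adjusted p = 0.0404). The Psmb10 call was lost when any 1 of 5 of the 6 compared libraries was left out (every one but library 3 of the stimulated cells), with log2 fold changes of -0.53 to -0.40 in those 5. In CPM per kilobase the inducible genes made up 77.2 ± 1.15% (SD, n = 3) of the summed catalytic level in unstimulated and 71.9 ± 0.514% in stimulated wild-type-labelled cells. The size of this share depends on the deposited exon lengths.

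**Figure D1:**
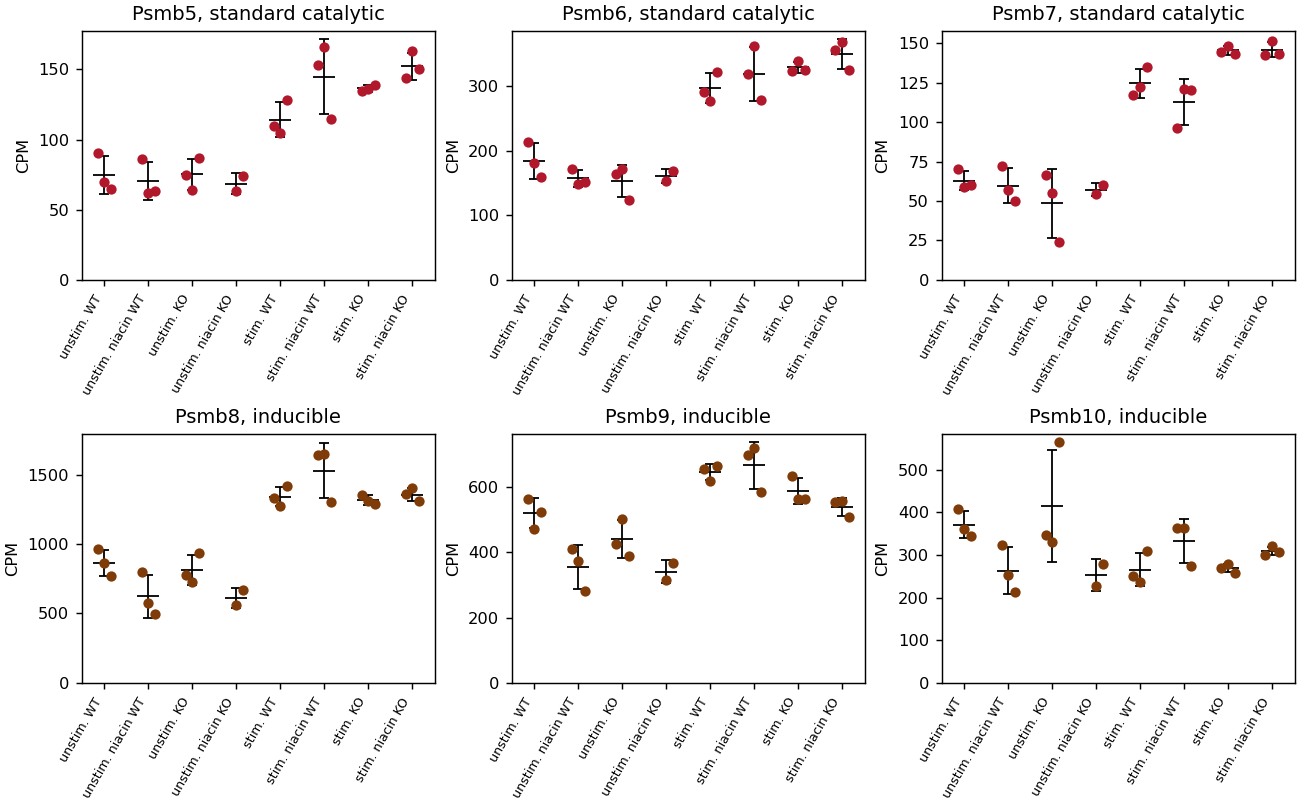
Level in CPM (y axis, from 0) of the standard catalytic genes Psmb5, Psmb6 and Psmb7 and the inducible genes Psmb8, Psmb9 and Psmb10 in each library of the 8 groups (x axis; WT and KO are labels); points are libraries and bars are mean ± SD. Psmb7 lies between 24.2 and 72.1 CPM in unstimulated libraries and between 96.0 and 151 CPM in stimulated ones, while Psmb10 overlaps between the conditions.

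Cap members moved less evenly. In stimulated wild-type-labelled cells 2 of the 6 ATPases, 0 of 3 non-ATPase base subunits, 5 of 8 lid subunits and 0 of 3 base chaperones (Psmd5, Psmd9 and Psmd10) were called higher. Psmc6 had the largest difference in the ATPase ring, at 76.1, 89.9 and 101 CPM unstimulated and 150.0, 169 and 152 CPM stimulated, a log2 fold change of 0.82 ± 0.26 (SE, adjusted p = 0.0151). Psmc1 followed at 169.6, 145 and 137 CPM and 181, 203 and 234 CPM, with 0.45 ± 0.18 (SE, adjusted p = 0.0458). Neither had overlapping ranges. The Psmc1 call was lost when any 1 of 4 of the 6 libraries was left out (libraries 2 and 3 of either group), with log2 fold changes of 0.35 to 0.47, and the Psmc6 call was lost without library 1 of the unstimulated group (0.72, adjusted p = 0.0601 by edgeR).

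In the lid, Psmd8 had the largest difference of all members, at 172, 152 and 148 CPM unstimulated and 368, 376 and 380.1 CPM stimulated, a log2 fold change of 1.25 ± 0.14 (SE, adjusted p = 6.07e-07). Psmd14, which removes ubiquitin from substrates, went from 115, 117 and 116 CPM to 172, 211 and 239 CPM, a log2 fold change of 0.83 ± 0.19 (SE, adjusted p = 0.00111). Both sets of stimulated libraries were clear of the unstimulated ones. At the other end Psmc5, an ATPase, measured 149.7, 139 and 132 CPM and 121, 141 and 157 CPM, which overlapped, with a difference of -0.00 ± 0.14 (SE, adjusted p = 0.981). Members of the same ATPase ring, Psmc5 and Psmc6, thus stood at -0.00 and 0.82.

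No activator was called in stimulated wild-type-labelled cells, and all 4 ranges overlapped. Psme1, a subunit of the interferon-inducible 11S activator, measured 518, 509 and 498 CPM unstimulated and 426, 427 and 499 CPM stimulated, a difference of -0.17 ± 0.11 (SE, adjusted p = 0.197). Its partner Psme2 measured 504, 512 and 478 CPM and 426, 435 and 549 CPM, a difference of -0.08 ± 0.19 (SE, adjusted p = 0.738). Psme2b, whose transcript is 99.37% identical to that of Psme2, had 5.972% as many counts, so reads of these genes could be split between them. Psme3, the nuclear 11S subunit, measured 289, 248 and 224 CPM and 182, 242 and 293 CPM, a difference of -0.08 ± 0.16 (SE, adjusted p = 0.679). Psme4, the large single-chain activator, measured 30.1, 46.5 and 48.2 CPM and 38.5, 40.9 and 31.5 CPM, a difference of -0.17 ± 0.21 (SE, adjusted p = 0.522).

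**Figure D2:**
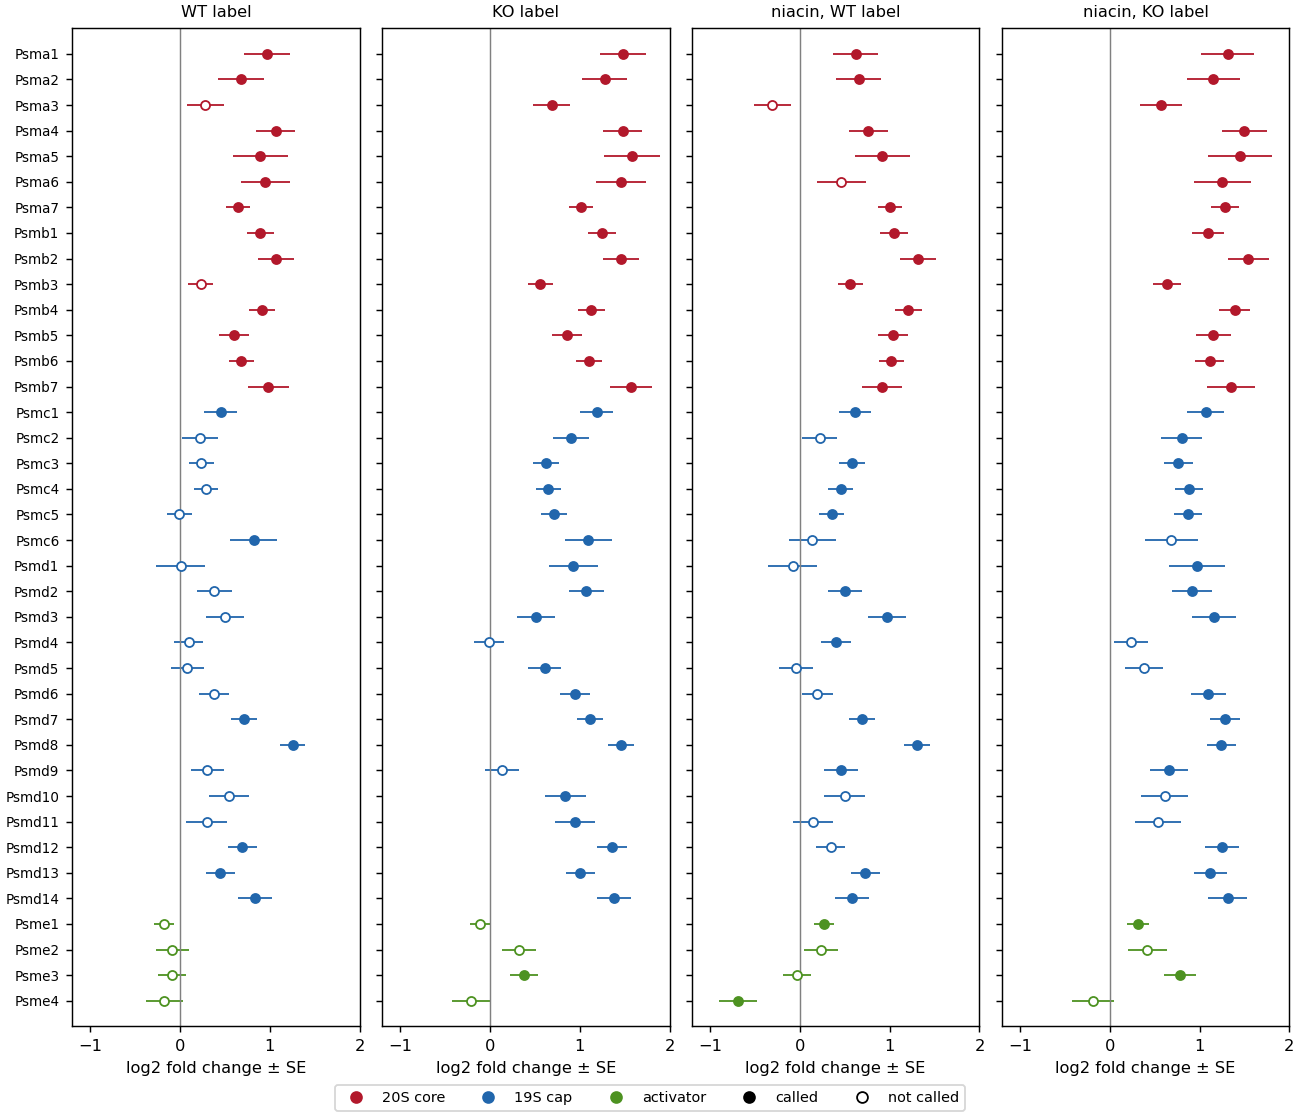
Log2 fold change ± SE (x axis) of each of the 38 tested members (y axis; 14 core, 20 cap and 4 activator genes) between stimulated and unstimulated cells of each label, without and with niacin; filled points were called by edgeR. Core members were called in 12, 14, 12 and 14 of 14 cases in the panels from left to right, and cap members in 7, 18, 12 and 15 of 20.

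The rise was also present in the other 3 stimulation comparisons. In knockout-labelled cells 33 of 38 members were called higher by edgeR (14 core, 18 cap and 1 activator), against 25.2% of all genes, with a median log2 fold change of 0.98. Without library 3 of the unstimulated group 34 were called higher, against 27.2% of all genes, and the median was 0.84. Psmd9 was then called at 0.42 ± 0.16, in place of 0.13 ± 0.19. With niacin, 25 members were called higher in wild-type-labelled cells (12 core, 12 cap and 1 activator), against 26% of all genes, with a median of 0.53. Without libraries 1 and 2 of the stimulated group 11 were called higher (8 core and 3 cap), against 15.5% of all genes, and the median was 0.51; fewer libraries were then tested. With niacin in knockout-labelled cells 31 were called higher (14 core, 15 cap and 2 activators), against 24.5% of all genes, with a median of 1.08. Over all genes the medians of these 3 comparisons were -0.13, -0.10 and -0.07. The 4 stimulation comparisons share no libraries.

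By class, in the order alpha ring, other beta, catalytic, ATPase, non-ATPase base, lid and base chaperone, 7 of 7, 4 of 4, 3 of 3, 6 of 6, 2 of 3, 8 of 8 and 2 of 3 were called higher in knockout-labelled cells. With niacin the numbers called were 5, 4, 3, 4, 2, 5 and 1 in wild-type-labelled cells and 7, 4, 3, 5, 2, 7 and 1 in knockout-labelled ones. The base subunit Psmc5, at -0.00 in wild-type-labelled cells, was called higher in knockout-labelled cells at 0.71 ± 0.14 (SE, adjusted p = 0.000256) by edgeR. Its values there were 125, 122 and 103 CPM unstimulated and 182, 184 and 209 CPM stimulated, with no overlap.

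The standard catalytic genes were called higher in each of these comparisons as well. Psmb5 measured 75.1, 64.2 and 86.5 CPM in unstimulated and 134, 136 and 139 CPM in stimulated knockout-labelled cells, a log2 fold change of 0.86 ± 0.17 (SE, adjusted p = 0.00026). Psmb6 measured 163, 171 and 124 CPM and 323, 338 and 325 CPM there, with 1.10 ± 0.14 (SE, adjusted p = 2.11e-06). Psmb7 measured 66.6, 55.0 and 24.2 CPM and 145, 148 and 143 CPM, with 1.57 ± 0.23 (SE, adjusted p = 1.2e-05). The ranges of all 3 were apart, and the unstimulated library 3 was the lowest of its group for Psmb6 and Psmb7 and the highest for Psmb5.

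With niacin Psmb5 measured 85.9, 61.8 and 63.3 CPM in unstimulated and 153, 166 and 115 CPM in stimulated wild-type-labelled cells, a log2 fold change of 1.04 ± 0.17 (SE, adjusted p = 3.49e-05). In knockout-labelled cells it measured 63.1 and 73.9 CPM and 144, 163 and 150.1 CPM, with 1.15 ± 0.19 (SE, adjusted p = 6.83e-05). Psmb6 and Psmb7 had log2 fold changes of 1.02 ± 0.14 and 0.92 ± 0.23 in wild-type-labelled cells with niacin and of 1.12 ± 0.16 and 1.35 ± 0.26 in knockout-labelled ones. All ranges were apart between stimulated and unstimulated cells. With niacin-treated stimulated libraries 1 and 2 left out, Psmb5 in the wild-type label was still called, at 0.68 ± 0.21.

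Among the inducible genes Psmb8 was called higher in all 4 stimulation comparisons, at 0.70 ± 0.15 in knockout-labelled cells and at 1.14 ± 0.17 in those with niacin. With niacin in the wild-type label Psmb8 went from 795, 576 and 497 CPM to 1640.5, 1648 and 1301 CPM. Psmb9 was called higher in knockout-labelled cells (0.42 ± 0.14) and, with niacin, in the wild-type (0.91 ± 0.14) and knockout label (0.66 ± 0.16). Psmb10 was called lower in knockout-labelled cells, at -0.62 ± 0.19 (SE, adjusted p = 0.00879), where it measured 348, 330.0 and 566 CPM unstimulated and 270.1, 279 and 259 CPM stimulated. The highest of these was the unstimulated library 3, and without it the difference of Psmb10 was -0.33 ± 0.16 and not called (adjusted p = 0.0809, edgeR). With niacin Psmb10 was not called in the wild-type label (0.34 ± 0.19) or the knockout label (0.29 ± 0.21). The inducible share of the catalytic level was 78.4 ± 3.26% in unstimulated and 68.4 ± 0.920% in stimulated knockout-labelled cells (SD, n = 3 each). The unstimulated mean was 76.5% over the 2 libraries other than library 3. With niacin it was 72.5 ± 2.31% and 72.0 ± 1.07% in the wild-type label, where the conditions differed by less than the spread, and 72.2 ± 0.778% (n = 2) and 67.4 ± 0.503% in the knockout label.

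Scaling by library totals moved the all-gene medians to -0.23 in wild-type-labelled and -0.26 in knockout-labelled cells, and with niacin to -0.38 and -0.37. The members' medians were then 0.31 and 0.82, and with niacin 0.25 and 0.78. Called members then numbered 14 higher and 1 lower in wild-type-labelled cells, against 19.1% and 26.7% of all genes, and 30 higher in knockout-labelled ones, against 21.5%. With niacin 11 were higher and 2 lower in wild-type-labelled cells, in place of 25 and 1, against 19.1% and 34.3% of all genes. In knockout-labelled cells with niacin 25 were higher, against 18%.

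Of the 14 core members, 11 were called higher in all 4 stimulation comparisons. The exceptions were Psma3 (2 comparisons), Psma6 (3) and Psmb3 (3). Of the 20 cap members 5 were called higher in all 4, 6 in 3, 5 in 2 and 4 in 1. The members called once were Psmd4, a ubiquitin receptor, Psmd11, a lid subunit, and the chaperones Psmd5 and Psmd10. Psme1 and Psme3 were each called higher in 2 and Psme2 and Psme4 in none. Each comparison alone called 23.4% to 26% of all genes higher. The share of all genes called higher in several or all 4 was not computed, so these counts show no trait particular to the members. With the same 2 libraries of wild-type-labelled cells left out (1 and 2, stimulated with niacin), the core members Psma1, Psma2, Psma5 and Psmb3, 9 cap members and Psme1 were no longer called there, Psme1 at 0.12 ± 0.15.

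One member was called in the opposite direction to the median member. Psme4 measured 41.0, 47.0 and 49.9 CPM in unstimulated wild-type-labelled cells with niacin and 24.0, 21.4 and 40.4 CPM in stimulated ones, a log2 fold change of -0.69 ± 0.21 (SE, adjusted p = 0.01), in a comparison where 26.6% of all genes were called lower. The low values belonged to libraries 1 and 2, those with few mitochondrial counts, and without both the difference was -0.21 (adjusted p = 0.57, edgeR). It was also not called without library 1 alone (-0.57) or library 2 alone (-0.51). What the mitochondrial share had to do with it was not tested.

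**Figure D3:**
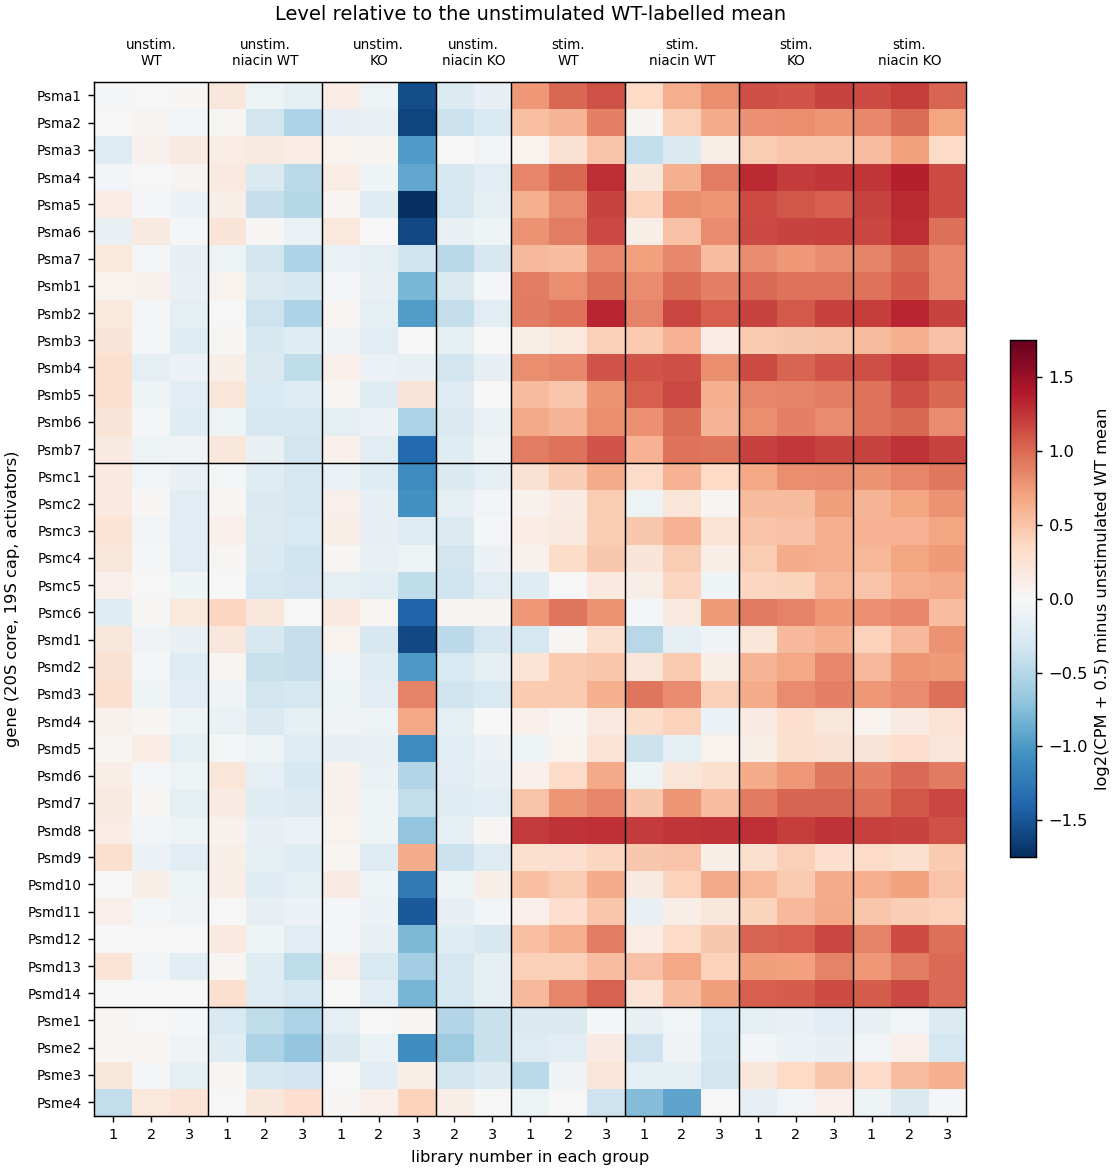
Level of each tested member (rows) in each library (columns, numbered within the 8 groups) as log2(CPM + 0.5) minus the mean of the unstimulated wild-type-labelled libraries (colour scale, red higher, blue lower; values beyond the scale take its end colour). Most core and lid rows are red in the stimulated groups, the rows of the 4 activators are mostly pale, and library 3 of the unstimulated knockout-labelled group stands apart from its neighbours.

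The balance of core to cap was followed in every library as the mean log2 CPM of the 14 core members minus that of the 20 cap members, in which the scaling of a library cancels. It was between 0.279 and 0.491 in the 12 stimulated libraries and between -0.182 and 0.134 in the 11 unstimulated ones, so that no library of one condition reached the other. The lowest value came from the unstimulated knockout-labelled library 3, and the other 10 unstimulated libraries began at 0.0357. The score was computed on chosen members, so no test was made of it.

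By group, unstimulated wild-type-labelled libraries stood at 0.0703, 0.105 and 0.134, and with niacin at 0.112, 0.0807 and 0.0357. Unstimulated knockout-labelled libraries stood at 0.109, 0.130 and -0.182, and the 2 with niacin at 0.0766 and 0.105. These 4 groups overlapped one another, apart from the library at -0.182. Stimulated wild-type-labelled libraries stood at 0.462, 0.398 and 0.491, and with niacin at 0.378, 0.432 and 0.468. Stimulated knockout-labelled libraries stood at 0.460, 0.359 and 0.313, and with niacin at 0.444, 0.472 and 0.279. The stimulated groups overlapped as well, with means of 0.450 ± 0.047, 0.426 ± 0.045, 0.378 ± 0.075 and 0.398 ± 0.104 (SD, n = 3 each).

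The difference of group means between stimulated and unstimulated cells was 0.347 in wild-type-labelled cells, 0.359 in knockout-labelled cells, 0.350 in wild-type-labelled cells with niacin and 0.308 in knockout-labelled cells with niacin. In knockout-labelled cells it was 0.258 without library 3 of the unstimulated group. As sums of CPM per kilobase, core members went from 1193 ± 88.3 to 2124 ± 242 and cap members from 937 ± 92.4 to 1276 ± 128 in wild-type-labelled cells (SD, n = 3). The ratio of these sums went from 1.28 to 1.66, and over all 8 groups every stimulated library had a higher ratio than every unstimulated one. The sum weighs the most abundant genes, and the mean log2 weighs all members alike. In bulk samples fewer cells with a high level and less RNA per cell cannot be told apart.

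**Figure D4:**
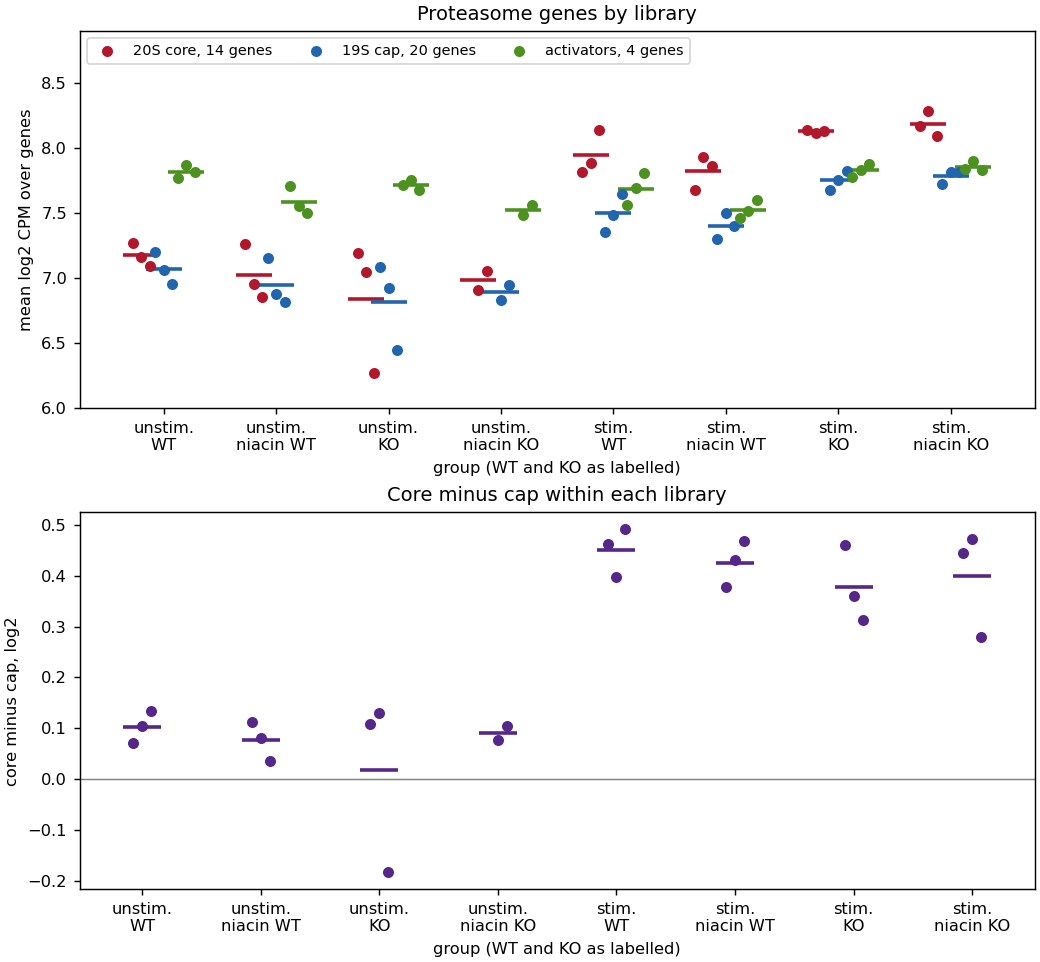
Upper panel: mean log2 CPM (y axis) of the 14 core, 20 cap and 4 activator genes in each library of the 8 groups (x axis; WT and KO are labels); points are libraries and lines are group means. Lower panel: core minus cap in each library, between 0.279 and 0.491 in the 12 stimulated libraries and between -0.182 and 0.134 in the 11 unstimulated ones.

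Markers of other cell types also moved with stimulation. The 3 NK cell markers (Ncr1, Klrb1c and Klrd1) summed to between 11.6 and 40.8 CPM in unstimulated and between 0.531 and 4.76 CPM in stimulated libraries, and all 3 were called lower in stimulated wild-type-labelled cells. The 4 B cell markers summed to 4.16 to 8.62 CPM unstimulated and 1.06 to 6.12 CPM stimulated, with none called. Of the 6 CD4 T cell markers Cd3e (-0.25 ± 0.10) and Ptprc (-0.77 ± 0.25) were called lower. Cd3d (0.48 ± 0.21), Trac (0.20 ± 0.14), Cd3g (0.12 ± 0.21) and Cd4 (-0.17 ± 0.13) were not called. Within wild-type-labelled cells without niacin, Cd3d and Trac were above their unstimulated range in every stimulated library. The 6 myeloid and dendritic markers reached at most 9.69 CPM, with Csf1r and Itgax at 0 in all stimulated libraries. Adgre1 of that list was called higher, as were Hba-a1 and Hbb-bt of the 4 erythroid and platelet markers, which summed to at most 4.37 CPM. The 2 CD8 genes reached 29.2 CPM, with Cd8b1 above Cd8a in every library. The part of these cell types in the members' differences was not tested.

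Library 3 of the unstimulated knockout-labelled group differed from the other 10 unstimulated libraries in both directions. It lay below all of them in 10 of 14 core and 15 of 20 cap members and above all of them in 3 cap members. The share of all genes for which this held was not computed, so no trait particular to the members is shown. Outside the members, Cd3d measured 175 CPM in library 3 and 407 and 443 CPM in the other libraries of the group. Akirin2 measured 401 CPM in library 3 and 76.5 and 73.1 CPM in the others. Psmb7 measured 24.2 CPM in it and 66.6 and 55.0 CPM in the other libraries of the group. Psmd3, a lid subunit, measured 464 CPM in it and 309, 239.7 and 220.4 CPM in the unstimulated wild-type-labelled libraries. Members made up 0.418% of its counts, against 0.587% to 0.754% in the other unstimulated libraries and 0.737% to 1.04% in stimulated ones. Libraries 1 and 2 of the niacin-treated stimulated wild-type-labelled group were both below library 3 in 5 core and 9 cap members and both above it in 5 core and 8 cap members. For this too the share of all genes was not computed.

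Other genes of the pathway were read from lists. Of 7 genes for core assembly and its inhibitors, 4 rose and none fell in stimulated wild-type-labelled cells by edgeR, against 23.4% and 21.7% of all genes. Psmg1, a chaperone of the outer ring, rose most, from 38.8, 38.2 and 33.7 CPM to 107, 118 and 122 CPM, with a log2 fold change of 1.65 ± 0.16 (SE, adjusted p = 5.51e-08). Pomp, which helps the core to mature, rose by 0.73 ± 0.19 (SE, adjusted p = 0.00438) from 152, 122 and 112 CPM to 201, 189 and 252 CPM. In both the stimulated libraries were clear of the unstimulated ones. The largest negative value in this list was that of the proteasome inhibitor Psmf1, at -0.08 ± 0.13, which was not called.

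Cap subunits with other names differed. Sem1, a lid subunit, rose from 70.9, 88.1 and 75.6 CPM to 158, 141 and 175 CPM, a log2 fold change of 1.02 ± 0.14 (SE, adjusted p = 7.07e-06). Adrm1, a ubiquitin receptor of the base, measured 138, 109 and 111 CPM and 118, 111 and 128 CPM, which overlapped, with -0.00 ± 0.19 (SE, adjusted p = 0.988). Of 11 genes for cap assembly and proteasome-associated proteins 3 rose and 2 fell, in a comparison where 23.4% of all genes were called higher and 21.7% lower. Txnl1, a thioredoxin-like protein of the cap, rose by 1.41 ± 0.18 (SE, adjusted p = 2.82e-06), and Ubqln2, a shuttle for ubiquitinated proteins, had a log2 fold change of -0.96 ± 0.33 (SE, adjusted p = 0.0223).

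A list of 5 genes held Nfe2l1, Ddi2, Ngly1 and Vcp, for NRF1 and its processing, and Nfe2l2, which encodes the related factor NRF2. Of these 5 genes 0 rose and 1 fell in stimulated wild-type-labelled cells, against 23.4% and 21.7% of all genes. Nfe2l1 itself measured 83.4, 105 and 83.7 CPM unstimulated and 108, 125 and 111 CPM stimulated, with a log2 fold change of 0.34 ± 0.17 (SE, adjusted p = 0.108). It was not called there, nor in knockout-labelled cells (0.32 ± 0.17), and was called higher with niacin in both labels (0.51 ± 0.17 and 0.46 ± 0.19). Without libraries 1 and 2 of the niacin-treated stimulated group the value of Nfe2l1 in the wild-type label was 0.26 ± 0.23 and not called. Ddi2, the protease that activates NRF1, fell with -0.68 ± 0.14 (SE, adjusted p = 0.000468). It was called lower in the other 3 stimulation comparisons too, at -0.91 ± 0.14, -0.90 ± 0.14 and -0.61 ± 0.15.

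No member was called for niacin in any of the 4 comparisons by edgeR or DESeq2, and of all genes 0%, 0%, 0% and 0.00592% were called by edgeR. By limma's voom 2 members were called in unstimulated and 7 in stimulated wild-type-labelled cells, against 1.69% and 10.8% of all genes. In unstimulated wild-type-labelled cells 3 members had an unadjusted p under 0.05 (7.89%, against 2.71% of all genes). The median log2 fold change there was -0.16 with 34 of 38 below 0, and scaled by library totals it was -0.08 with 28 below 0. In unstimulated knockout-labelled cells 3 members had an unadjusted p under 0.05 (7.89%, against 7.96%), with a median of 0.02 and 17 below 0. Without library 3 of that group the median was -0.15 and 36 of 38 were below 0. Scaled by library totals with all libraries it was 0.16, beside 0.15 over all genes. In stimulated cells 3 members did in the wild-type label (7.89%, against 9.96%) and none in the knockout label (against 5.22%), with medians of -0.13 and 0.06. Nor was any member called in the test of a niacin effect that differs with stimulation, in either label, where 0% of all genes were called by edgeR. In each label 1 member (2.63%) had an unadjusted p under 0.05 by edgeR, against 7.36% of all genes in the wild-type and 6.77% in the knockout label. Voom called 9 in the wild-type label, against 8.07% of all genes. The numbers of members below 0 are given here without the share of all genes below 0.

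The niacin comparisons share their libraries with the stimulation comparisons. In unstimulated cells the activator genes Psme1 and Psme2 had negative differences with niacin, none of them called. Psme1 measured 518, 509 and 498 CPM without and 424, 374 and 348 CPM with niacin in wild-type-labelled cells, and the groups did not overlap. The difference was -0.41 ± 0.11 (SE, adjusted p = 0.567) by edgeR. In knockout-labelled cells it measured 452, 505 and 514 CPM without and 356 and 387 CPM with niacin, again with no overlap and a difference of -0.40 ± 0.12 (SE, adjusted p = 0.608). In stimulated cells the differences of Psme1 were 0.03 ± 0.11 and 0.02 ± 0.11. Psme2 differed by -0.46 ± 0.19 in unstimulated wild-type-labelled cells and by -0.08 ± 0.21 in knockout-labelled ones, and only in the former did its ranges not overlap. Without library 3 of the unstimulated knockout-labelled group the latter was -0.32 ± 0.16, with no overlap and no call. For all genes 9.66% and 16.6% of groups did not overlap in these comparisons, the second with 2 libraries on one side. The inducible genes had differences of the same sign in unstimulated cells, at -0.47 ± 0.15, -0.55 ± 0.14 and -0.50 ± 0.19 for Psmb8, Psmb9 and Psmb10 in the wild-type label and -0.40 ± 0.17, -0.37 ± 0.15 and -0.71 ± 0.21 in the knockout label, none of them called. Without library 3 the Psmb10 value in the knockout label was -0.42 ± 0.17.

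For the genotype label, no member was called in unstimulated cells (0.0415% of all genes called), in unstimulated cells with niacin (0.0355%) or in stimulated cells (0.113%) by edgeR or DESeq2. Members with an unadjusted p under 0.05 by edgeR were 3, 0 and 4 (7.89%, 0% and 10.5%), against 10.4%, 0.983% and 8.45% of all genes. In stimulated cells voom called 2 members, against 1% of all genes. In unstimulated cells 33 of 38 members were lower in the knockout label, with a median of -0.26, which was -0.08 without library 3 of the knockout-labelled group. In stimulated cells 37 of 38 were higher, with a median of 0.21, and 14 of 38 were without overlap between the labels, against 20.5% of all genes. For the directions no share over all genes is given beside the members.

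In stimulated cells with niacin 3 members were called higher in the knockout label by edgeR, and none lower, against 1.44% of all genes called. DESeq2 called 7 members, against 6.65% of all genes, and voom 22, against 20.2%. Psmd6, a lid subunit, measured 90.7, 112 and 117 CPM in the wild-type-labelled and 178, 193 and 182 CPM in the knockout-labelled libraries, a log2 difference of 0.79 ± 0.17 (SE, adjusted p = 0.0247). Psme3 measured 224, 224 and 203 CPM and 319.5, 368 and 388 CPM, a difference of 0.73 ± 0.16 (SE, adjusted p = 0.0274). Psmd12, another lid subunit, measured 114, 131 and 145 CPM and 190.2, 229 and 204 CPM, a difference of 0.68 ± 0.16 (SE, adjusted p = 0.0426). In all 3 genes every knockout-labelled library was above every wild-type-labelled one. Each call was lost in at least 4 of the 6 fits without 1 library. Without libraries 1 and 2 of the wild-type-labelled group none was called, and the differences were 0.62, 0.80 and 0.49 (adjusted p = 0.47, 0.305 and 0.591 by edgeR).

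The median over all 38 members in that comparison was 0.39, with 35 above 0, and 25 were without overlap between the labels, against 26.5% of all genes. Without those 2 libraries the median was 0.33 with 34 above 0. The share of all genes above 0 is not given for either. In stimulated cells without niacin these genes differed by 0.40 ± 0.17, 0.42 ± 0.16 and 0.39 ± 0.16 for Psmd6, Psme3 and Psmd12, none called. The comparisons with and without niacin share no libraries, but their cells carry the same labels.

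**Figure D5:**
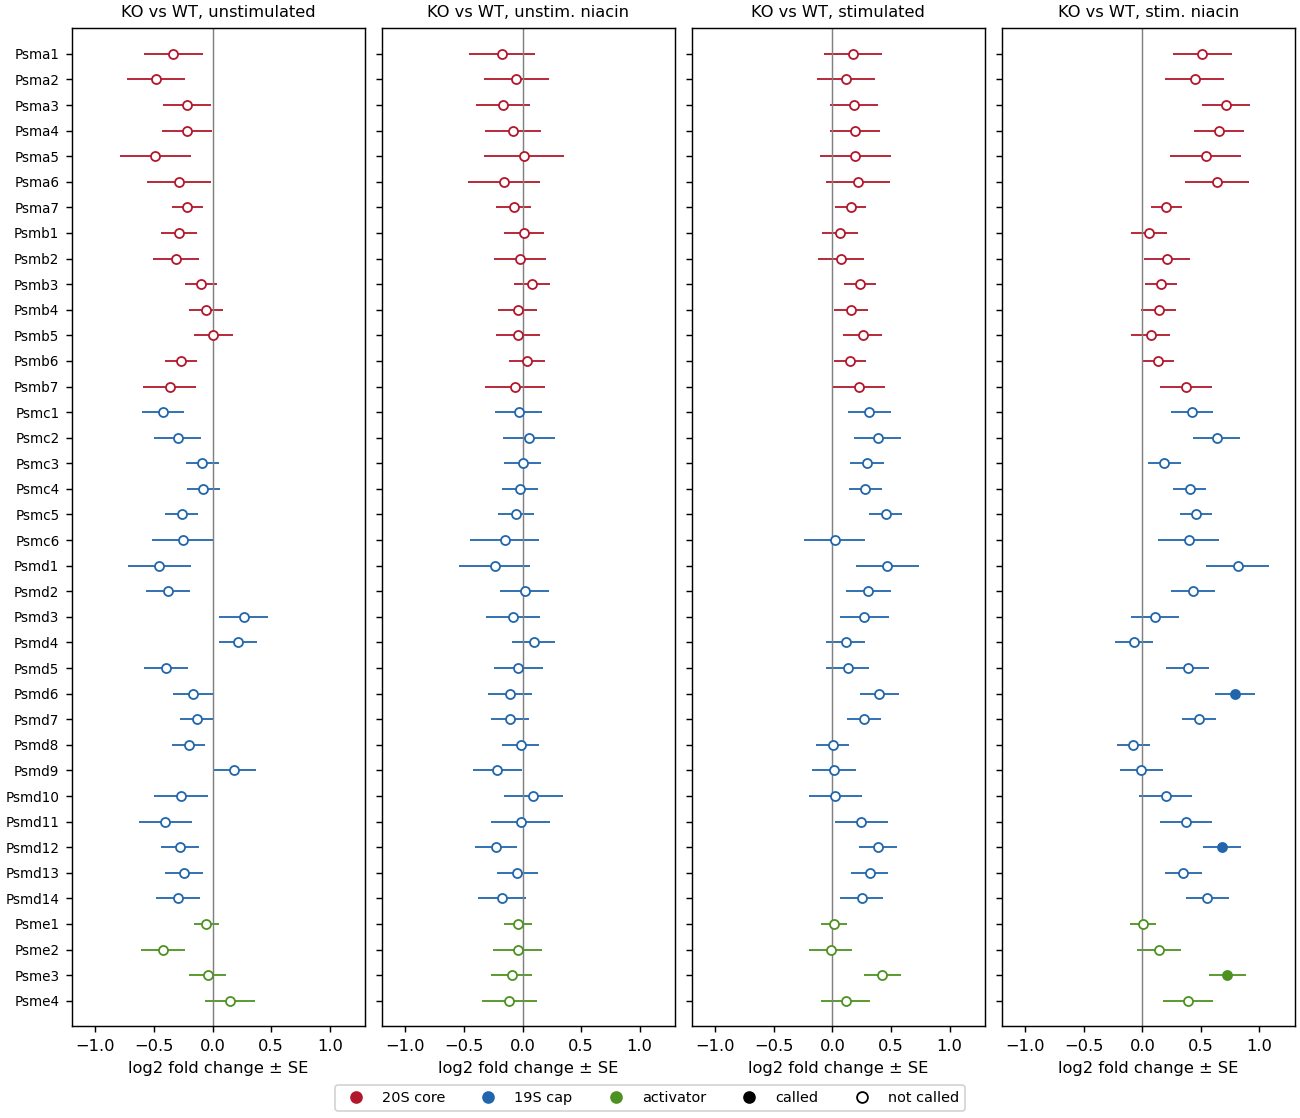
Log2 difference ± SE (x axis) of each of the 38 tested members (y axis) between knockout-labelled and wild-type-labelled cells in the 4 conditions; filled points were called by edgeR. Psmd6, Psmd12 and Psme3 are filled in the panel of stimulated cells with niacin, and no point is filled in the other panels.

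The difference of the stimulation effects between labels was tested as well, a comparison added after the data had been seen. No member was called without niacin (0.00592% of all genes called) or with niacin (0%), by edgeR. With niacin DESeq2 called 1 and voom 12, against 0.403% and 12.5% of all genes. Unadjusted p-values were under 0.05 for 10 and 9 of 38 members, against 10.5% and 11% of all genes. The median difference was 0.41 without niacin, with 35 of 38 members showing the larger rise in the knockout label, and 0.43 with niacin, with 36 of 38. Without library 3 of the unstimulated knockout-labelled group the former was 0.28 and 36 of 38 were positive. Without libraries 1 and 2 of the niacin-treated stimulated wild-type-labelled group the latter was 0.41 and 35 of 38 were positive. Every member was read in the same libraries, so members are not replicates of a label. The share of all genes with the same sign is not given, and no label effect on the members is shown by these directions.

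Psmd9 lies 613439 bases from Hcar2 on chromosome 5. It differed by 0.19 ± 0.19, -0.22 ± 0.21, 0.01 ± 0.18 and -0.01 ± 0.18 between the labels in the order unstimulated, unstimulated with niacin, stimulated and stimulated with niacin, with no call. Without library 3 of the unstimulated knockout-labelled group the first was -0.10 ± 0.16. The label and any other difference carried near Hcar2 cannot be told apart.

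Some members share sequence or position with other genes, and the strand setting of counting was not given in the sources used here. Antisense exons overlap Psmb7 (Nek6), Psmc3 (Slc39a13), Psmd13 (Sirt3) and Psme1 (Emc9), so part of their reads could belong to those genes. Near-identical copies other than Psme2b held at most 2.235% as many counts as the member, for Psmd11 and A730017L22Rik.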

How the data were processed

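RNA-seq libraries were made with SMART-seq V4 and sequenced paired-end on a HiSeq, per the labels' protocols. The submitters' processing notes name Trimmomatic 0.38, STAR 2.7.0e, featureCounts 1.6.3 and the build GRCm38.p5 (mm10). The authors deposited 1 table of raw read counts per gene ID for the whole series, with the gene positions and exon lengths used here. Total counts per library were 13205565 to 30090018.

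Symbols were matched for 53274 of 53379 gene IDs. Counts were tested with edgeR 4.0.16 (R 4.3.3): filterByExpr with a minimum count of 10 kept 16882 genes, TMM factors ran from 0.885 to 1.138, and 8 group means were fitted over 23 libraries with 15 residual degrees of freedom. Contrasts were tested by quasi-likelihood with Benjamini-Hochberg adjustment over all genes and a threshold of 0.05. The common biological coefficient of variation was 27.35%. Group balance was the mean log2 CPM (prior count 2) of core minus cap. CPM per kilobase used the deposited exon length. On simulated counts of 16162 genes for stimulation in wild-type-labelled cells, 64% of genes changed 2-fold and 10% of those changed 1.5-fold were called. In the simulation 15962 genes were unchanged, whereas 45.1% of all genes were called in the data for that comparison. The adjustment was therefore stricter on the simulated counts, and these shares do not carry over to the stimulation comparisons.

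Alternatives were DESeq2 1.42.0, its size factors within edgeR (RLE), library totals, no filter, a replicate block, limma 3.58.1 voom with quality weights, the compared groups alone, leaving out each library, leaving out libraries 1 and 2 of stimulated wild-type-labelled cells under niacin, and another core-minus-cap measure. Stimulation by genotype label was added after seeing the data. Values in every library are given for the catalytic genes, the 2 core, 2 ATPase and 2 lid or base members with the largest stimulation difference in wild-type-labelled cells, the core and cap member with the smallest, all activators, and members called for niacin or label or against the median. Each list gives its largest rise and fall and, in any case, Nfe2l1, Pomp, Adrm1 and Sem1. Psmd3, Psmd9 and the shared-position genes were named after their values were seen. A list of ubiquitin genes is not reported here. The members and lists were chosen with earlier results of these data known.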

Additional observations from a re-analysis of the deposited data

How the results depend on the processing

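Of 250 recomputed counts and core-minus-cap differences with all libraries or a named pair left out, 218 stayed near the value given. Of 230 with 1 library left out, 218 did. A core-minus-cap difference could be near the value given and still have the other sign. For niacin in unstimulated knockout-labelled cells it ran from -0.0289 to 0.127 with 1 library left out. For the label in unstimulated cells it ran from -0.140 to 0.0162, and all these values were taken as near. Counts of members called are given in this section without the share of all genes called, which also moved with the setting. For the label in stimulated cells with niacin that share was 1.44% by edgeR and 6.65% by DESeq2. The counts thus describe the fits and no trait of the members. Cap members called higher on stimulation in wild-type-labelled cells numbered 4 with library totals, 15 with voom and 11 with the compared groups alone. The last setting gave 11 in knockout-labelled cells. With niacin in wild-type-labelled cells, library totals gave 11 members higher, 7 core and 4 cap, and without libraries 1 and 2 of the stimulated group 11 members and 3 cap were called, when fewer samples were compared. Leaving out 1 library gave 15 to 25 members and 6 to 12 cap members there. The lowest, 15, was without library 3 of the unstimulated group, and 16 were called without library 2 of either group.

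Voom called 2 members for niacin in unstimulated and 7 in stimulated wild-type-labelled cells, 9 for niacin by stimulation in that label, 2 for the genotype label in stimulated cells and 12 for stimulation by label with niacin. For the label in stimulated cells with niacin the count was 7 by DESeq2, 8 with no filter, 22 by voom, 6 with the compared groups alone, 0 without libraries 1 and 2 of the wild-type-labelled group, and 0 to 6 without 1 library. Stimulation by label gave 1 with no filter, and with niacin 1 by DESeq2 and 1 with no filter. The cause of these changes was not tested.

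The core-minus-cap difference on stimulation in wild-type-labelled cells was 0.480 with the median over members and 0.388 with sums of reads per kilobase. It was 0.207 with the median in knockout-labelled cells, and 0.392 with niacin in wild-type-labelled cells without libraries 1 and 2. With the median over members it changed sign for niacin in unstimulated wild-type-labelled (0.0946) and knockout-labelled cells (-0.0973), and for the label in unstimulated cells without (0.134) and with niacin (-0.0576). For the label in stimulated cells it was -0.138, and -0.157 with niacin.

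With the replicate number as a block, 18 and 32 members were called for stimulation in wild-type-labelled and knockout-labelled cells, and 23 and 29 with niacin. For the label in stimulated cells with niacin 2 were called. The share of all genes called with that block is not given here. Same-numbered libraries of different groups had a median correlation of 0.019, and 8 of 77 pairs were above 0.1. Differently numbered ones had a median of -0.0043, with 14 of 154 above 0.1. Both were pooled over labels and conditions, so they do not show whether the numbers pair libraries within a label. Psma8 and Psmb11 had too few counts to test, and the effect of depth was not tested.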
